A study of Mus musculus with 21 samples.

Results

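The Gimap family (GTPases of immunity-associated proteins) is a set of 8 mouse genes in the deposited table, Gimap1, Gimap3, Gimap4, Gimap5, Gimap6, Gimap7, Gimap8 and Gimap9, out of 28987 gene identifiers. The members were taken by their symbols, and the family was chosen by the TPM of Gimap3, which was lower in knockout than in control blood stem cells over both batches. That contrast is therefore given below as a description, without a test. The RNA libraries number 21 and were made from lineage-negative bone marrow cells of pooled mice, 6 of multipotent progenitors (MPP, sorted as MPP3 and MPP4) and 15 of the long-term stem cells (LT-HSC) that give rise to them. The sources used here do not give the strain or the age of the animals. Batch 1 holds 3 libraries each of LT-HSC and MPP from floxed controls (Rxrabfl/fl, with no Cre named) and from knockouts that the labels write as VaviCre+Rxrabfl/fl. Batch 2 is made up of LT-HSC alone. Its groups, again of 3 libraries, come from a Cre control with wild-type alleles (Vav1Cre+WT), from animals labelled knockout (Vav1Cre+Rxrabfl/fl), and from knockouts with a floxed Myc-family allele on a single chromosome, which the titles write as Myclfl/+ and the descriptions as Myc (here the Myc allele group). The floxed genes are Rxra and Rxrb, which encode retinoid X receptors, and Vav1 is a promoter active throughout blood cells, so this Cre is not limited to stem cells. The labels name Cre in all batch 2 groups and in the batch 1 knockouts but not in the floxed controls, so batch, Cre and floxed alleles cannot be told apart between the 2 kinds of control.

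GIMAP proteins bind and split GTP, sit on intracellular membranes, and are known mainly from lymphocytes, where several are needed for survival. Loss of Gimap5 makes T cells short-lived in rodents and disturbs blood stem cells, loss of Gimap1 depletes mature T and B cells, and the GIMAP6 protein binds an autophagy protein of the GABARAP family. RXR are nuclear receptors that act as partners of the retinoic acid, oxysterol and fatty acid receptors.

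The family lies in a single cluster on mouse chromosome 6 (mm10), from 48647186 to 48770851, a span of 123.7 kb. The order along the chromosome is Gimap8, Gimap9, Gimap4, Gimap6, Gimap7, Gimap1, Gimap5 and Gimap3, with Gimap6 and Gimap3 on the minus strand and the others on the plus strand. The 250 bases before the RefSeq start (GRCm38.p6, the assembly mm10 names) are shown for 5 of the members. These are Gimap3, the gene for which the family was chosen, Gimap6, which had the largest log2 change between MPP genotypes, Gimap7, which was higher in MPP, and Gimap4 and Gimap5, which were lower there. Each reads 5′ to 3′ on the gene's own strand. Capitals mark the matches, on either strand, to 3 motifs: AGGTCA, the core bound by RXR partners, TGTGGT, a core bound by RUNX factors, and GGAAGT, a core bound by ETS factors.
Gimap3: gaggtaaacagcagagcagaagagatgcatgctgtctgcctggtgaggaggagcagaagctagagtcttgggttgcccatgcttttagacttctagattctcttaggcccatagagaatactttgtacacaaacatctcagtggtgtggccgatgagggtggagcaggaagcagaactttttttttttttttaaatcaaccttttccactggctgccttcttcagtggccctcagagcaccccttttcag
Gimap6: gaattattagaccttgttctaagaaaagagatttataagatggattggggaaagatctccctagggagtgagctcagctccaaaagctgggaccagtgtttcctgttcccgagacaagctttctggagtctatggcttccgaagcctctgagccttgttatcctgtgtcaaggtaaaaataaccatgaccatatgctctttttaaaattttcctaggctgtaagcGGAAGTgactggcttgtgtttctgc
Gimap7: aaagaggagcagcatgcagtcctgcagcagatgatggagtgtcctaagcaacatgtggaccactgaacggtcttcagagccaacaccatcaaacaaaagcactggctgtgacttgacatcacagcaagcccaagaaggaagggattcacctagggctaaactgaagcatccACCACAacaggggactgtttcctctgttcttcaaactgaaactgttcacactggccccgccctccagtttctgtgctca
Gimap4: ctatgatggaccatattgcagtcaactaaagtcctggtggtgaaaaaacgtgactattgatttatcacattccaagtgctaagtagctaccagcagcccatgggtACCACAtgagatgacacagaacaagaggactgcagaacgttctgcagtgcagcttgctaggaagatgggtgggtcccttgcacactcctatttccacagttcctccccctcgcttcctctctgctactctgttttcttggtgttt
Gimap5: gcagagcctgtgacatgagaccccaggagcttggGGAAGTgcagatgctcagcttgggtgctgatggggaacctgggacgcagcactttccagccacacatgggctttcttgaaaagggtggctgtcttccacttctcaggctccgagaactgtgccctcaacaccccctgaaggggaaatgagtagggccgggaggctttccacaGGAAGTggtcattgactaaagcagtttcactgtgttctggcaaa
These windows lie at chr6:48770852-48771101 (minus strand, Gimap3), chr6:48708245-48708494 (minus strand, Gimap6), chr6:48718371-48718620 (plus strand, Gimap7), chr6:48684328-48684577 (plus strand, Gimap4) and chr6:48745947-48746196 (plus strand, Gimap5). The Gimap3 window holds none of the 3 motifs. Gimap7 and Gimap4 each hold 1 RUNX match, read as ACCACA on the gene's strand and starting 79 and 145 bases before the start. Gimap5 holds 2 ETS matches, at 216 and 44 bases before the start, and Gimap6 holds 1 at 25 bases. Of the members not shown, Gimap1 holds 1 RUNX match at 95 bases. Gimap8, which was also lower in MPP, and Gimap9 hold none of the 3 motifs. AGGTCA is in no window of any member, and 14.0% of 32536 promoter windows of that length hold it, while 14.0% hold TGTGGT and 19.8% hold GGAAGT. The motifs do not overlap each other here, and a missing match says only that the letters are not in the window.

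The unit is TPM, an abundance corrected for transcript length on a scale that is fixed within a library, so that levels of different genes can be compared. Sums per library ran from 691094 to 918942 TPM and the read depth behind a value is unknown. A single identifier without a symbol took 10.6% to 51.8% of the scale, so a second fit of every comparison first scaled the libraries by median-of-ratios size factors (called rescaled). As a check of the deletion, the Rxra junction that leaves out an exon had a share (PSI) of 0 in controls other than LT-HSC floxed control 2, at 0.1. It was 0.938 in LT-HSC knockout 1 and 1 and 0.5 in MPP knockouts 1 and 3, with no value in the other batch 1 knockouts. In the batch 2 libraries labelled knockout it was 0, 0.0127 and 0, so that they did not exceed the controls by this junction. The Myc allele libraries had 0.647, 0 and 1. Rxrb, the other floxed gene, was at 10.6 to 12.8 TPM in labelled knockouts and at 14.5 TPM or more in Cre controls. Such a lower value without overlap was seen in 16.8% of 12714 genes. In the Myc allele group Rxrb was at 6.40 to 8.88 TPM. Rxrb overlapped between genotypes in batch 1 LT-HSC, and Rxra TPM did so in LT-HSC of both batches. Whether these levels reflect the deletion was not tested. Every LT-HSC marker tested that passed the test between cell types was lower in MPP, 16 of 20 in floxed controls and 19 of 20 in knockouts, with Slamf1 and Vwf among them, and all 7 MPP markers tested, such as Dntt and Flt3, rose in floxed controls.

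In stem cells the family was dominated by Gimap1 and Gimap6. Gimap1 had the highest mean over all 15 LT-HSC libraries, 103 ± 43.7 TPM (SD, n = 15), followed by Gimap6 at 83.4 ± 25.5 TPM (SD, n = 15) and Gimap5 at 33.0 ± 10.9 TPM (SD, n = 15). Gimap8 stood at 10.5, Gimap4 at 8.31 and Gimap9 at 7.58 TPM, while Gimap3 (0.942 TPM) and Gimap7 (0.739 TPM) were near the limit of what was kept for testing. In this order the step from a gene to the next exceeded the larger of their SDs at 3 places, below Gimap6, below Gimap5 and below Gimap9. The other steps stayed within that SD, which also holds differences between batches and genotypes. Compared within libraries, Gimap1 was above Gimap6 in 13 of 15 and Gimap8 above Gimap4 in 13 of 15. Gimap4 was above Gimap9 in 7 of 15. Gimap1 and Gimap6 together made up 68.1% to 78.2% of the family's TPM in LT-HSC and 77.1% to 83.6% in MPP. The family's summed level ran from 129 to 412 TPM in LT-HSC and from 96.8 to 176 TPM in MPP.

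In MPP the leading member differed between genotypes. In floxed controls Gimap6 led with a mean of 82.6 ± 9.41 TPM (SD, n = 3), and Gimap1 had a mean of 52.5 ± 3.56 TPM (SD, n = 3). In knockouts Gimap1 had the higher mean, 44.7 ± 3.21 TPM (SD, n = 3), and Gimap6 stood at 40.9 ± 7.38 TPM (SD, n = 3), a gap within their spread. Over all 6 MPP libraries the means were 61.7 ± 24.1 TPM (SD, n = 6) for Gimap6 and 48.6 ± 5.26 TPM (SD, n = 6) for Gimap1, with Gimap5 at 9.35 and Gimap9 at 8.64 TPM. Gimap8 (2.96 TPM), Gimap7 (2.50 TPM), Gimap4 (0.804 TPM) and Gimap3 (0.138 TPM) followed. The steps below Gimap1, Gimap9, Gimap7 and Gimap4 exceeded the larger SD, and those below Gimap6, Gimap5 and Gimap8 did not. Gimap7 was above Gimap4 in all 6 MPP libraries. In stem cells Gimap7 had the lowest mean over all 15 libraries, but Gimap3 was above it in 9 of 15 only, and in all 3 batch 1 knockouts Gimap3 was the lower of the pair.

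**Figure D1:**
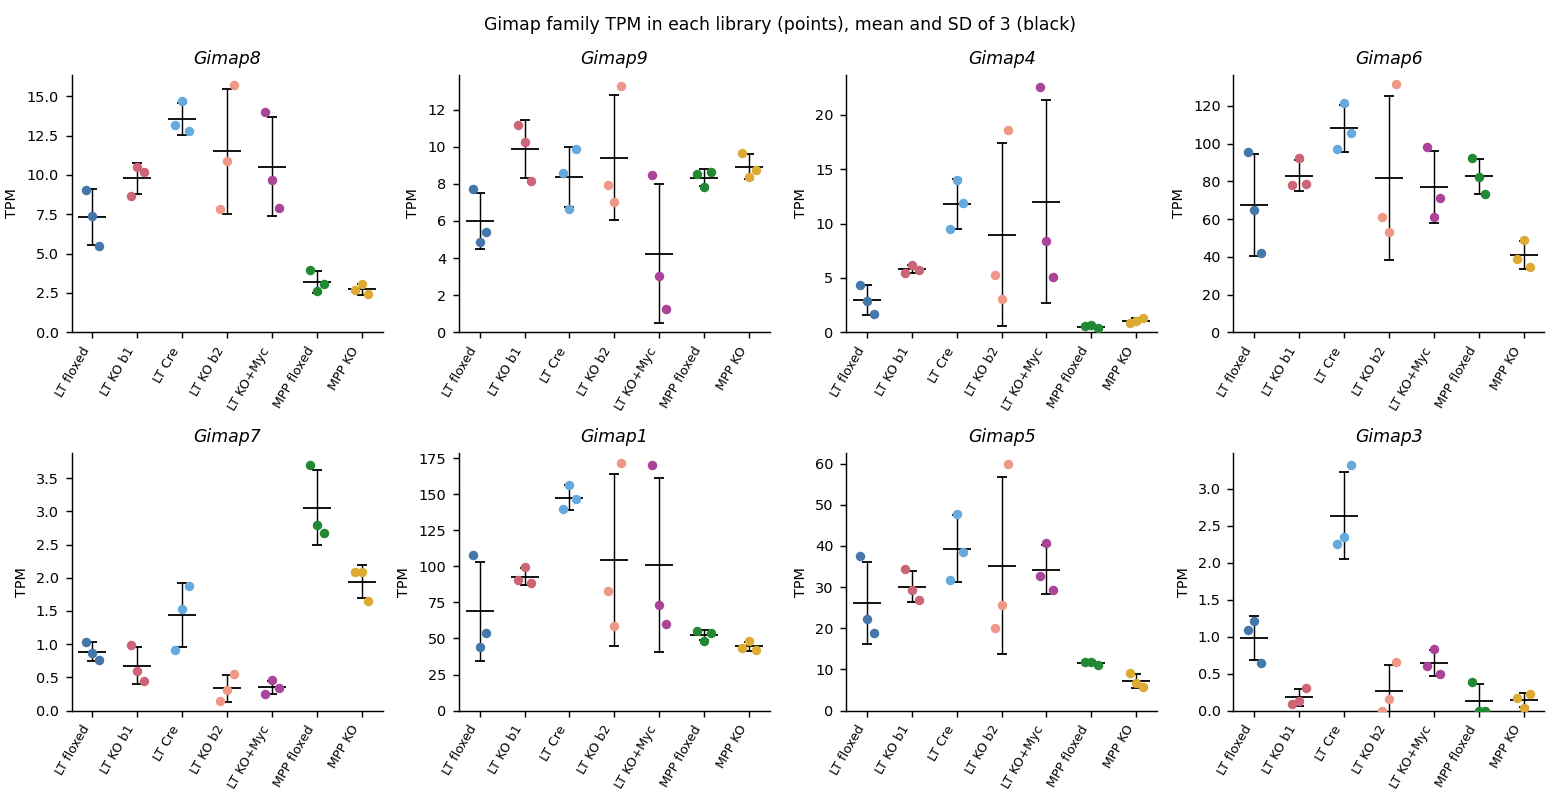
TPM of each Gimap member (panels, in chromosome order) in each of the 21 libraries, with a separate axis from 0 for each gene, points for libraries and black bars for the mean and SD of 3. LT is LT-HSC, b1 and b2 are the batches. Gimap3 was between 0.639 and 3.31 TPM in the control LT-HSC and between 0 and 0.657 TPM in the LT-HSC of batch 1 knockouts and labelled knockouts, while Gimap4, Gimap5 and Gimap8 were lower in MPP than in LT-HSC.

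The cell types were first compared with RXR intact, MPP against LT-HSC of floxed controls. Gimap4, Gimap5 and Gimap8 were lower in MPP and Gimap7 was higher. The LT-HSC controls of this comparison also entered the choice of Gimap3. Bulk RNA cannot tell fewer expressing cells from less RNA per cell, here or below.

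Gimap4, whose protein hastens the death of stressed T cells, was at 4.37, 2.86 and 1.66 TPM in floxed control LT-HSC and at 0.537, 0.640 and 0.418 TPM in MPP. Every MPP library was below every LT-HSC library, as in 7.92% of all genes, and the means differed 5.58-fold. The log2 change on the log2(TPM + 1) scale, which understates changes of low genes, was -1.32 (SE 0.23, limma with Benjamini-Hochberg adjusted p = 8.13e-04). Gimap4 passed the filter on low values through LT-HSC, where it is high, and with no filter its adjusted p was 0.00490. Gimap5, the survival gene, was at 37.4, 22.2 and 18.8 TPM in LT-HSC and at 11.9, 11.7 and 11.1 TPM in MPP, again without overlap. Its log2 change was -1.05 (SE 0.23, limma adjusted p = 0.00529). Gimap8, the largest member, which carries several GTP-binding domains, went from 9.05, 7.39 and 5.51 TPM in LT-HSC to 3.94, 2.59 and 3.04 TPM in MPP, a log2 change of -0.98 (SE 0.20, limma adjusted p = 0.00279). These 3 genes are not next to each other: Gimap9 lies between Gimap8 and Gimap4, and Gimap6, Gimap7 and Gimap1 lie between Gimap4 and Gimap5.

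Gimap7, whose protein can stimulate GTP splitting by other family members, changed in the other direction. It was at 1.04, 0.871 and 0.758 TPM in floxed control LT-HSC and at 3.70, 2.79 and 2.67 TPM in MPP, 3.44 times as much. The groups did not overlap, which held for 31.6% of all genes in this direction, and the log2 change was 1.10 (SE 0.19, limma adjusted p = 8.13e-04). Gimap7 passed the filter through MPP, and with no filter its adjusted p was 0.00176 by limma. Gimap1 (log2 change -0.28, adjusted p = 0.442), Gimap6 (0.36, 0.307) and Gimap9 (0.44, 0.107) did not pass limma's test, although Gimap9 was higher in every MPP library, at 7.82 to 8.66 TPM against 4.86 to 7.71 TPM. After rescaling Gimap1 was lower too (-0.58, limma adjusted p = 0.0481), as were 12.7% of all genes on that scale, and without LT-HSC floxed control 1 Gimap9 passed (0.61, limma adjusted p = 0.0263). Of all genes, 1784 to 3816 passed in either direction when any 1 library was left out.

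Gimap3 was left out of that fit because it reached 1 TPM in fewer than 3 libraries of batch 1. Its protein is a close relative of Gimap5 on membranes of immune cells. It stood at 1.09, 1.21 and 0.639 TPM in floxed control LT-HSC and at 0.390, 0 and 0 TPM in floxed control MPP, with no overlap. The control LT-HSC values are among those that chose it, so the gap is given without a test. Of all genes, 15.5% rose and 5.62% fell in this comparison (limma, 14839 genes tested), and the median log2 change was 0.26 over all genes and -0.28 over the 7 members tested.

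The same cell types in the knockouts gave the same directions for these 4 genes, with Gimap1 and Gimap6 added. The knockout LT-HSC here also entered the choice of Gimap3. Gimap5 had the largest change on the log2(TPM + 1) scale, while Gimap4 had the larger ratio of means (5.38 against 4.23). Gimap5 went from 34.3, 29.2 and 26.9 TPM in knockout LT-HSC to 9.04, 6.70 and 5.63 TPM in knockout MPP, a log2 change of -1.95 (SE 0.23, limma adjusted p = 2.56e-05). Gimap4 went from 5.46, 6.18 and 5.72 TPM to 0.853, 1.05 and 1.33 TPM (log2 change -1.71, limma adjusted p = 6.44e-05). Gimap8 went from 8.67, 10.5 and 10.2 TPM to 2.69, 3.06 and 2.42 TPM (-1.53, 5.27e-05). In none of these did a library of one cell type overlap with the other, as in 30.2% of all genes for lower and 10.1% for higher MPP values. Gimap7 rose from 0.981, 0.604 and 0.443 TPM in LT-HSC to 2.08, 2.09 and 1.66 TPM in MPP (0.82, limma adjusted p = 0.00565). As above, Gimap7 passed the filter on low values through MPP and Gimap4 through LT-HSC. With no filter the limma adjusted p was 0.00640 for Gimap7 and 7.64e-04 for Gimap4.

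Gimap1 and Gimap6, the abundant members, were both about 2-fold lower in knockout MPP than in knockout LT-HSC. Gimap1 went from 90.4, 99.8 and 88.4 TPM to 43.4, 48.3 and 42.3 TPM (log2 change -1.04, SE 0.25, limma adjusted p = 0.00825). Gimap6 went from 77.9, 92.4 and 78.6 TPM to 39.1, 49.0 and 34.6 TPM (-1.01, SE 0.25, adjusted p = 0.00914). The call for Gimap6 was lost after rescaling (-0.74, limma adjusted p = 0.0533), where 11.3% of all genes fell. Gimap9 did not pass (-0.12, adjusted p = 0.707), with 11.2, 10.3 and 8.15 TPM in LT-HSC and 9.66, 8.38 and 8.76 TPM in MPP. Gimap3 was listed at 0.0940, 0.130 and 0.312 TPM in LT-HSC and at 0.175, 0.0380 and 0.223 TPM in MPP and was not tested. In this comparison 3.99% of all genes rose and 15.5% fell, and the median log2 change was -0.20 over all genes and -1.04 over the 7 members tested. On the rescaled values the split over all genes was 1724 up and 1680 down, against 592 up and 2297 down on deposited TPM. In floxed controls it was 1664 up and 1882 down, against 2305 up and 834 down.

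**Figure D2:**
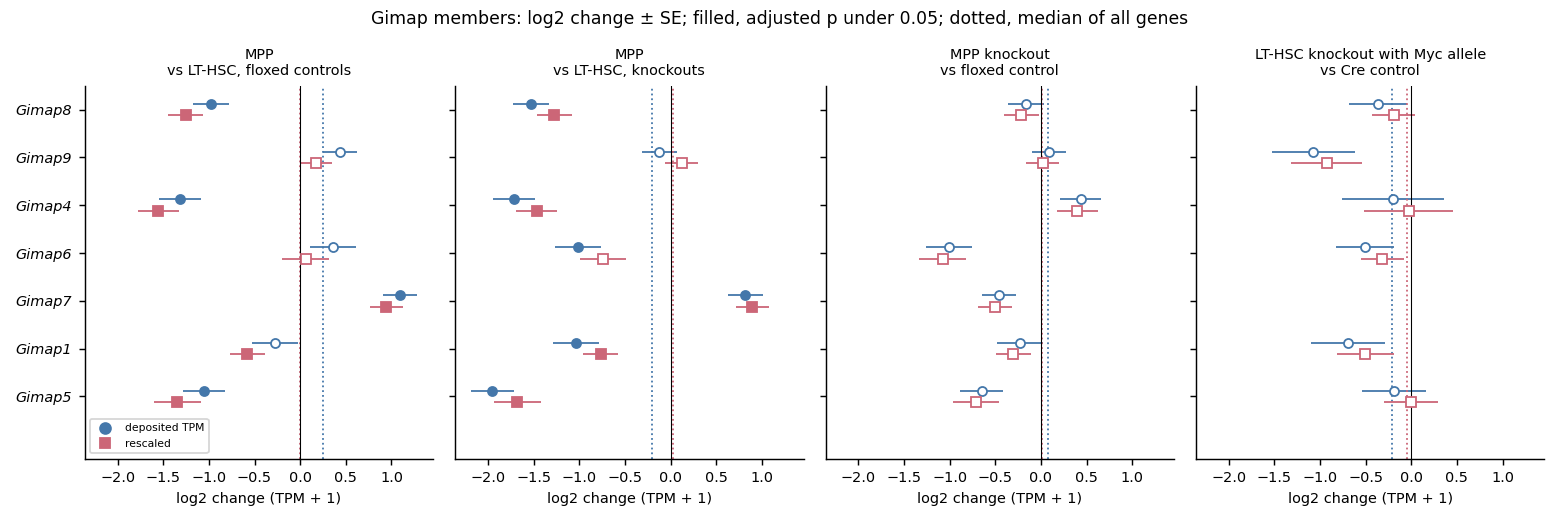
Log2 change of each tested member on log2(TPM + 1), with bars for the SE, in 4 comparisons, on deposited TPM (blue circles) and rescaled (red squares). Filled symbols passed limma's test at an adjusted p under 0.05, and dotted lines mark the median of all genes. Gimap4, Gimap5 and Gimap8 lie left of 0 and Gimap7 right of 0 in both comparisons of cell types, and no symbol is filled in the comparisons of genotypes. Gimap3, for which the family was chosen, is not drawn.

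Loss of RXR in MPP was a comparison of genotypes that did not enter the choice of the family. None of the 7 members tested passed, against 0.323% of all genes (48 of 14839, limma), and 943 genes had an unadjusted p under 0.05. Gimap6 had the largest change on the log2(TPM + 1) scale. It was at 92.2, 82.2 and 73.4 TPM in floxed control MPP and at 39.1, 49.0 and 34.6 TPM in knockout MPP, so that each knockout library was below each control. The means differed 2.02-fold and the log2 change was -1.01 (SE 0.25, limma adjusted p = 0.143, rescaled -1.08 and 0.0946). Without LT-HSC floxed control 3, which enters through the shared spread, the limma adjusted p was 0.0419. Of all genes, 14 to 77 passed when any 1 library was left out. The GIMAP6 protein is the member tied to autophagy.

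Gimap5 stood at 11.9, 11.7 and 11.1 TPM in control MPP and at 9.04, 6.70 and 5.63 TPM in knockout MPP (log2 change -0.65, limma adjusted p = 0.453). Gimap7 (-0.46, adjusted p = 0.616) and Gimap1 (-0.23, adjusted p = 1) also had every knockout library below every control. Gimap4 had every knockout library above every control, at 0.853 to 1.33 TPM against 0.418 to 0.640 TPM (0.43, adjusted p = 0.857). Such a gap without overlap was seen in 6.39% of all genes for lower and in 12.7% for higher knockout values. Gimap8 (-0.16, adjusted p = 1) and Gimap9 (0.09, adjusted p = 1) overlapped between genotypes. Gimap3, too low to be tested, was at 0.390, 0 and 0 TPM in controls and at 0.175, 0.0380 and 0.223 TPM in knockouts, so no difference could be seen at these levels. The median log2 change of the 7 members was -0.23 and that of all genes 0.08.

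The knockout effect in MPP was then set against that in LT-HSC with an interaction term, whose LT-HSC side is part of the contrast that chose Gimap3. No member passed, against 0.0809% of all genes, and 3891 genes had an unadjusted p under 0.05. Gimap6 had the largest value, -1.38 (SE 0.35, limma adjusted p = 0.0909), that is, its knockout effect was lower in MPP than in LT-HSC. With LT-HSC and MPP of the same code, taken as a shared pool, as a replicate block it passed (-1.38, SE 0.26, limma adjusted p = 0.0322). In that setting 1342 of 14839 genes passed, 1328 of them lower. After rescaling, without the block, Gimap6 was at -0.80 (limma adjusted p = 0.376). Over all genes the median of this term was -0.45 on deposited TPM and 0.04 after rescaling. Without LT-HSC floxed control 1 Gimap1, Gimap5 and Gimap6 passed (limma adjusted p = 0.0314, 0.0384 and 0.0266), and without LT-HSC knockout 1 Gimap6 passed (0.0359). The number of all genes that passed moved as well when any 1 library was left out, from 2 to 1905.

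The contrast that chose the family is described here by its values. Gimap3 was at 1.09, 1.21 and 0.639 TPM in floxed control LT-HSC and at 0.0940, 0.130 and 0.312 TPM in batch 1 knockouts, a ratio of means of 5.48. Of 13999 genes with 1 TPM or more in at least 3 of these libraries, a set without Gimap3, 0.536% were lower without overlap. In batch 2 it was at 2.24, 2.35 and 3.31 TPM in Cre controls and at 0, 0.152 and 0.657 TPM in the libraries labelled knockout, a ratio of 9.76. The highest knockout value, 0.657 TPM in labelled knockout 6, lay just above the lowest control value, 0.639 TPM in floxed control 3, so that the 6 controls and 6 knockouts overlap by that pair across batches and not within a batch. Over both batches the log2 change was -1.14. Of all 14492 genes tested there, 61 (0.421%) passed limma's test, 58 of them higher and 3 lower. The lower ones were 0.0207% of the genes tested. Gimap3 was chosen by this contrast, so the shares given here are a description and no support for its fall. Gimap3 was the member inside the threshold of the choice, and Gimap7 the nearest outside it (-0.52). Gimap7 was lower without overlap in batch 2, at 0.920, 1.54 and 1.87 TPM in Cre controls against 0.147, 0.317 and 0.549 TPM in the libraries labelled knockout, and overlapped in batch 1, at 1.04, 0.871 and 0.758 against 0.981, 0.604 and 0.443 TPM. The other 6 members had log2 changes between -0.07 (Gimap6) and 0.38 (Gimap9) over both batches.

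Within batch 1 the knockout LT-HSC had higher values than floxed controls for 6 members on deposited TPM, among them Gimap4 (log2 change 0.83) and Gimap9 (0.65), whose groups did not overlap, as in 48.4% of all genes. There the median over all genes was 0.52, and 44.6% of all genes were called higher. After rescaling, Gimap1, Gimap5, Gimap6 and Gimap8 had values below 0 (-0.11, -0.38, -0.28 and -0.19), Gimap4 stood at 0.31 and Gimap9 at 0.07. In batch 2, Gimap1, Gimap4, Gimap5, Gimap6 and Gimap8 were spread widely among the libraries labelled knockout. Labelled knockout 6 had the highest value of its group for every member, such as 172 TPM of Gimap1 against 82.9 and 58.4 TPM in the others, and 18.6 TPM of Gimap4 against 5.28 and 3.06 TPM. This was not particular to the family. The same library was highest for Erg (159 TPM against 87.4 and 61.3) and Repin1 (21.6 TPM against 10.4 and 7.52). For Gm5111, Rxra and Rxrb it was not the highest, and the share over all genes was not counted. Of the members, only Gimap3 and Gimap7 kept all 3 labelled knockouts below all 3 Cre controls. This pattern was seen in 16.8% of 12714 genes with 1 TPM or more in at least 3 of these libraries, Gimap7 not among them.

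The knockout effect was also compared between batches with an interaction term. The rule used the mean of the effects and not their difference, but the libraries are the same. Gimap3 is left out of this test, since its values in these libraries chose the family. None of the other 7 members passed on deposited TPM or after rescaling, against 1.27% of all genes (184 of 14492, limma) and 0.124% after rescaling, and 5846 genes had an unadjusted p under 0.05. Gimap4 had the largest value (-1.51, SE 0.59, limma adjusted p = 0.0848, rescaled -0.82 and 0.661). Over all genes the median was -0.73, close to the median of -0.74 over the 8 members, Gimap3 included. Without labelled knockout 6, Gimap1, Gimap4, Gimap6 and Gimap8 passed (limma adjusted p = 0.0144, 0.00818, 0.0223 and 0.0460). Without LT-HSC floxed control 1, Gimap1 passed alone (limma adjusted p = 0.0379). The number of all genes that passed also moved when any 1 library was left out, from 18 to 5548.

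Cre controls and floxed controls, which differ by batch as well as genotype, gave a further range for the family in LT-HSC with RXR. Gimap1 was at 140, 157 and 147 TPM in Cre controls and at 108, 44.3 and 54.1 TPM in floxed controls, a ratio of 2.15. Gimap4 was at 9.48, 14.0 and 11.9 TPM against 4.37, 2.86 and 1.66 TPM, a ratio of 3.98. Gimap3 (2.69), Gimap6 (1.60) and Gimap8 (1.85) were higher without overlap as well, as were 39.0% of all genes. Gimap5, Gimap7 and Gimap9 overlapped between the kinds of control. No test was made, since batch and genotype cannot be told apart.

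The Myc allele libraries did not enter the choice of the family, while the Cre controls they are set against did. No member tested passed against Cre controls, with Gimap3 left out because those controls entered its choice, compared with 0.104% of all genes (14 of 13445, limma), and 1267 genes had an unadjusted p under 0.05. Gimap3 was at 0.609, 0.834 and 0.494 TPM in the Myc allele group and at 2.24, 2.35 and 3.31 TPM in Cre controls. All 3 libraries were below all 3 controls and the means differed 4.08-fold, including replicate 2, whose Rxra skipping junction was at 0. Gimap3 was under 1 TPM in every batch 2 library other than the Cre controls, and its gap is given without a test.

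Gimap7 had a like gap, with 0.250, 0.454 and 0.347 TPM in the Myc allele group against 0.920, 1.54 and 1.87 TPM in Cre controls, a ratio of 4.12, and was too low to be tested. A lower value without overlap was seen in 12.1% of the 12815 genes with 1 TPM or more in at least 3 of these libraries, Gimap7 not among them. Gimap9 was at 8.45, 3.03 and 1.25 TPM against 8.57, 6.67 and 9.89 TPM (log2 change -1.07, SE 0.46, limma adjusted p = 0.503), with replicate 1 at the level of the controls. Without that replicate its log2 change was -1.62 (limma adjusted p = 0.0355). Of all genes, 5 to 973 passed in this comparison when any 1 library was left out. Gimap1 (-0.70, adjusted p = 0.51), Gimap6 (-0.51), Gimap8 (-0.37), Gimap4 (-0.20) and Gimap5 (-0.19) overlapped between the groups. The median over the members tested, Gimap3 included, was -0.51 and over all genes -0.21.

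Against the libraries labelled knockout, no member and no gene at all passed in the Myc allele group (0 of 13445, limma), with 547 genes at an unadjusted p under 0.05. Gimap3 stood at 0.609, 0.834 and 0.494 TPM beside 0, 0.152 and 0.657 TPM, and the groups overlapped. Gimap9 had the largest value (-1.19, SE 0.46), and the other members tested lay between -0.10 and 0.48. These Myc allele comparisons share libraries with the batch 2 contrast above, so their values are not independent of it.

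The 5 nearest genes on each side of the cluster with a row in the table were looked at in the same fits. Before it lie Lrrc61, Rarres2, Gm5111, Repin1 and Zfp775, and after it Tmem176b, Tmem176a, Aoc1, Gm10242 and Doxl2. Of these 10 genes, 6 were high enough to be tested in batch 1. Gm5111 rose in MPP in floxed controls (log2 change 1.63) and in knockouts (1.22), and none of the 6 passed between MPP genotypes. Lrrc61, Repin1, Zfp775, Tmem176a and Tmem176b did not pass in either comparison of cell types, so no tested neighbour fell with Gimap4, Gimap5 and Gimap8.

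**Figure D3:**
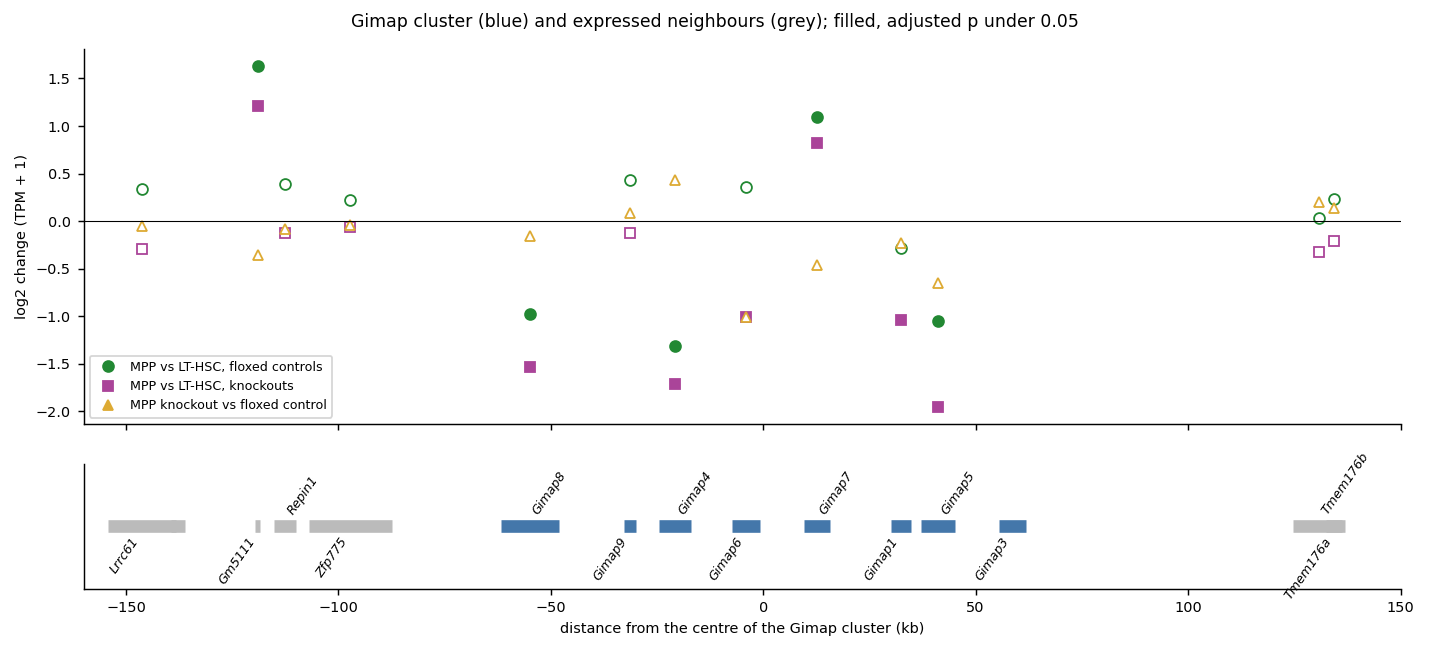
Log2 change on log2(TPM + 1) of the Gimap members and of the tested neighbours in 3 comparisons (upper panel) against position relative to the centre of the cluster in kb, with gene bodies below (blue, Gimap; grey, neighbours). Filled symbols passed limma's test at an adjusted p under 0.05. Gimap8, Gimap4 and Gimap5 lie below 0 in MPP against LT-HSC, Gimap7 between them lies above 0, and of the neighbours only Gm5111 has filled symbols.

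Likeness to Gimap3 and to Gimap1 was measured across the 15 LT-HSC libraries. Pearson's r on log2(rescaled TPM + 1) with Gimap3 was 0.817 for Gimap7 and 0.564 for Gimap6, between 0.337 and 0.456 for Gimap1, Gimap4, Gimap5 and Gimap8, and -0.0332 for Gimap9. Gimap1 was closest to Gimap4 (0.876), Gimap6 (0.777) and Gimap8 (0.712), and had an r of 0.202 with Gimap7. Among 14806 genes the 5 outside the family most like Gimap3 were Phlpp1 (0.867), P2rx7 (0.852), Gm7117 (0.850), Dzip1 (0.821) and Glns-ps1 (0.816). P2rx7, an ATP-gated channel gene of immune cells, had means of 1.79 and 3.09 TPM in the floxed and Cre controls and of 1.11, 0.732 and 0.887 TPM in batch 1 knockouts, labelled knockouts and the Myc allele group. In MPP its means were 3.53 TPM in floxed controls and 4.25 TPM in knockouts. Phlpp1, Gm7117 and Dzip1 overlapped between LT-HSC genotypes in batch 1. Their means there were 4.81, 2.33 and 2.16 TPM in floxed controls and 5.43, 2.18 and 2.01 TPM in knockouts. The 5 most like Gimap1 were Erg (0.958), an ETS factor gene needed by blood stem cells, Ppp2r5a (0.956), Mpp5 (0.953), Ormdl3 (0.952) and Ogfrl1 (0.949). These coefficients describe 15 libraries that share batches and groups, and the Gimap3 values behind them include those that chose it.

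Genes with related roles were counted in the same fits. Of 23 genes of lymphocyte survival and quiescence, 5 rose and 2 fell in floxed control MPP, with a median of 0.18 against 0.26 over all genes. The death-promoting Bcl2l11 (log2 change 2.91) and the interleukin-7 receptor gene Il7r (1.82) rose, and Bcl2, which blocks apoptosis, rose by 0.95. In knockouts 4 rose and 6 fell. After rescaling 5 rose and 4 fell in floxed controls, and 6 rose and 3 fell in knockouts, so the balance turned with the scale. Of 15 interferon-inducible GTPases tested (19 listed), a neighbouring group of GTP-binding proteins of immune defence, 6 fell and 3 rose in floxed controls, and 10 fell and 1 rose in knockouts. After rescaling 9 fell and 2 rose in floxed controls, while the knockout counts stayed at 10 and 1. Of all genes 5.62% fell in floxed controls and 15.5% in knockouts on deposited TPM. Gbp8 (-1.80), Gbp4 (-1.55) and Iigp1 (-1.55) fell and Mx2 (1.73) rose in floxed controls. Of 11 lymphoid and blood transcription factors 5 rose, among them Satb1 (4.34) and Notch1 (1.87), and 2 fell, Tal1 (-0.94) and Gata3 (-0.75), and in knockouts 4 rose and 3 fell. After rescaling 3 rose and 3 fell in floxed controls, and in knockouts again 4 rose and 3 fell. Between MPP genotypes no gene of these 3 lists passed.

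Markers of other cells in the sorted samples moved with cell type. Of 16 T and NK cell markers tested, 9 rose and 1 fell in floxed control MPP (Trbc1, Trbc2 and Nkg7 by 3.98, 3.06 and 2.78, while Klrb1c fell by 1.23), and 4 rose and 2 fell in knockouts. The summed TPM of the 27 listed was 111 to 252 in floxed control MPP, 112 to 114 in knockout MPP and 39.8 to 74.1 in floxed control LT-HSC. Of the 27, 11 were under 1 TPM in every floxed control MPP library, and 14 in every floxed control LT-HSC library. Of 12 B cell markers 5 rose in floxed controls, led by the antibody genes Ighm (9.45) and Igkc (7.37), and 6 rose and 1 fell in knockouts. The summed TPM of the 15 listed was 2166 to 11721 in floxed control MPP, 788 to 6037 in knockout MPP, 13.8 to 221 in floxed control LT-HSC and 377 to 900 in batch 1 knockout LT-HSC. Of 7 endothelial and stromal markers tested 3 fell and 1 rose in floxed controls, and 6 fell in knockouts, with sums over the 17 listed of 17.3 to 25.4 TPM in MPP and 22.5 to 71.0 TPM in LT-HSC. No marker list had a called gene between MPP genotypes on deposited TPM. Gimap genes are active in lymphocytes and in some endothelial cells, and the part of such RNA in the Gimap values was not tested.

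Splicing of the family was present in 11 events of the deposited junction table, 3 each in Gimap1, Gimap5 and Gimap8 and 1 each in Gimap6 and Gimap9. The Gimap6 event, a cassette exon, was the event with a value in all 21 libraries. Its examined junction, from 48704422 to 48702823 on chromosome 6, skips the exon, and the competing junction ends at 48703835. The share of skipping was 0.813, 0.613 and 0.609 in floxed control MPP and 0.843, 0.879 and 0.752 in knockout MPP. The means were 0.678 ± 0.117 (SD, n = 3) and 0.825 ± 0.0652 (SD, n = 3), and control 1 overlapped with the knockouts (exact two-sided permutation p = 0.2, Benjamini-Hochberg adjusted p = 0.36 over 6 comparisons). In LT-HSC the means ran from 0.752 ± 0.0582 (SD, n = 3) in batch 1 knockouts to 0.964 ± 0.0530 (SD, n = 3) in the Myc allele group. Most Gimap6 junction reads thus skipped the exon in every library, and none of the 6 comparisons reached the smallest exact p possible for 3 against 3, which is 0.1 (adjusted p = 0.36 to 0.5).

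**Figure D4:**
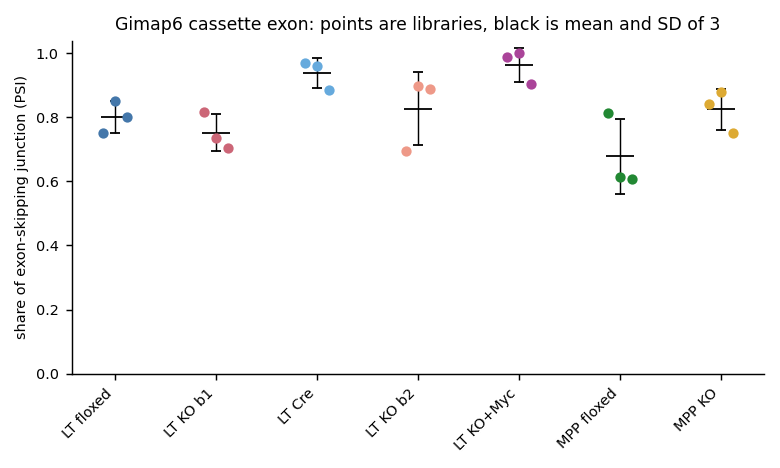
Share of the exon-skipping junction of Gimap6 (PSI, axis from 0) in each library, with points for libraries and black bars for the mean and SD of 3. The floxed control MPP spread from 0.609 to 0.813, and all libraries lie above 0.6.

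The remaining events were incomplete. The 3 Gimap5 events share the donor at 48746430, with acceptors at 48747113, 48747281 and 48750454, whose median shares over 19 libraries were 0.288, 0.512 and 0.177. A Gimap1 event with values in 4 libraries competed with a junction from 48741417, inside Gimap1, to 48750454, an acceptor of Gimap5, so the table lists a junction that joins the pair of neighbouring genes. Reads of Gimap1 and of its antisense gene Gimap1os (4.14 to 20.4 TPM in LT-HSC) cannot be told apart if the counting ignored strand, which the sources used here do not say. Gimap3 and Gimap5 are close relatives, and how reads that match both were shared is not given either.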

How the data were processed

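The authors deposited TPM per Ensembl gene for 21 libraries and, in a second table, the fraction of reads on an examined splice junction (PSI) for 46443 events. Per the submitters' processing notes kallisto and STAR 2.6 were used with mm10, while the sources used here name no transcript set, strand setting or event caller. Per the labels' protocols 5 ng of RNA per library was amplified with the Ovation RNA-seq v2 kit, and paired-end libraries were made with Nextera XT. TPM keep no depth, so counting intervals are left out. A symbol was found for 27458 identifiers (94.73%), and no 2 libraries were identical.

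A gene entered a fit where 3 or more of its libraries had 1 TPM or more. Shares of all genes without overlap were taken over genes that reached this level within the groups compared. Tests ran on log2(TPM + 1) in limma 3.58.1 (R 4.3.3) with an intensity trend, and Benjamini-Hochberg adjustment over all genes tested and a threshold of 0.05. Fits used the 12 batch 1 libraries, the 9 batch 2 libraries or the 12 LT-HSC controls and knockouts. Pools of animals are the replicates, and a p-value reflects their spread. Gimap members, gene lists and comparisons were chosen with earlier results of these data known. Named are the members, up to 4 list genes with the largest changes, the 5 nearest genes on each side and the 5 genes most like Gimap3 and Gimap1. Values of 2 list genes that this rule or the marker lists would name are not reported here. The exact permutation test of the Gimap6 junction was added after the data were seen, and PSI of the other member events is described only. Alternatives were a pseudocount of 0.1, no filter, rescaling, quantile scaling, a replicate block and leaving out each library.

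The descriptions give LT-HSC and MPP the same codes, such as WT1 or KO4. These were taken as pools shared by the cell types, although no label says so in words. Deviations from the group means of same-numbered LT-HSC and MPP correlated at 0.526, 0.148 and 0.248 in knockouts and at 0.0658, 0.102 and 0.103 in floxed controls, and each library was closest to its own number. Between genotypes the correlations ran from -0.137 to 0.281. Tested on simulated data, limma recovered 62% of genes changed by 1 and 97% of those changed by 2 in log2 between MPP genotypes (14510 genes), 60% and 99% between cell types (14551 genes), and 13% and 73% between the Myc allele group and Cre controls (13641 genes). The changed genes were drawn only from those above a set mean level. These rates thus do not cover low members, such as Gimap3, Gimap4, Gimap7 and Gimap8 in batch 1. The simulated noise was drawn separately for each gene, so the rates do not cover shifts of a whole library either. Plots used matplotlib 3.10.9 under Python 3.11.15.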

Additional observations from a re-analysis of the deposited data

How the results depend on the processing

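Among the members, Gimap4, Gimap5, Gimap7 and Gimap8 between cell types kept their direction and passed limma's test in both genotypes under each alternative run. The number of members that passed was 4 to 5 in floxed controls and 6 in knockouts when any 1 library was left out. It ran from 0 to 1 between MPP genotypes, 0 to 3 for the knockout effect of MPP minus LT-HSC, 0 to 1 for the Myc allele group against Cre controls, 0 to 0 against libraries labelled knockout, 0 to 5 between batches (Gimap3 among the 5) and 0 to 1 for the contrast over both batches. Of all genes, 1784 to 3816 then passed in floxed controls, 1825 to 3881 in knockouts and 14 to 77 between MPP genotypes. For MPP minus LT-HSC it was 2 to 1905 genes and between batches 18 to 5548. The Myc allele group had 5 to 973 genes against Cre controls and 0 to 3 against libraries labelled knockout. The contrast over both batches, with 0 to 387 genes, chose Gimap3, so its count of members is a description and no support. That count was 1 on deposited TPM and 0 with a pseudocount of 0.1, with no filter, after rescaling and after quantile scaling (Gimap3 -2.66, -1.14, -1.19 and -1.15). With a replicate block the count of members became 1 for the knockout effect of MPP minus LT-HSC (Gimap6) and 1 between batches (Gimap4, -1.51, limma adjusted p = 0.0360, where the numbers pair no samples), and no other call of a member changed. Of all genes, 1342 of 14839 passed with the block for MPP minus LT-HSC and 1105 of 14492 between batches. No paired analysis was possible for the Myc allele group because it shares no replicate number with the groups it is set against. Sign changes on small values came with scaling, given as rescaled and then quantile-scaled log2 changes where both turned: Gimap9 between cell types in knockouts (0.12 and 0.13), Gimap4 for MPP minus LT-HSC (0.087 and 0.12), Gimap6 in the Myc allele group against labelled knockouts (-0.057 and -0.058), and between batches Gimap5 (0.27 and 0.25), Gimap8 (0.10 and 0.14) and Gimap9 (0.22 and 0.24). Quantile scaling alone turned Gimap9 between MPP genotypes (-0.00039), Gimap6 between cell types in floxed controls (-0.056), Gimap7 for MPP minus LT-HSC (0.12) and Gimap5 in the Myc allele group against Cre controls (0.024). Leaving out libraries moved Gimap1 between cell types in floxed controls from -0.54 to 0.10 and Gimap4 in the Myc allele group against Cre controls from -0.75 to 0.23. Against labelled knockouts the ranges were -0.50 to 0.38 (Gimap1), -0.071 to 1.13 (Gimap4), -0.21 to 0.56 (Gimap5), -0.25 to 0.40 (Gimap6) and -0.32 to 0.13 (Gimap8). The cause was not tested. Depth is unknown, so the counting error of values under 1 TPM, as for Gimap3 and Gimap7, cannot be given.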
